A study of Danio rerio with 12 samples.

Results

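Mitochondria carry their own ribosomes, which translate the few proteins encoded in mitochondrial DNA, all of them subunits of the oxidative phosphorylation complexes. The ribosomal RNAs come from the mitochondrial genome, but every mitochondrial ribosomal protein is encoded in the nucleus, made on cytosolic ribosomes and imported. Some of these proteins have a counterpart in the bacterial ribosome and others are found in mitochondria alone. In the haemogenic endothelium of the embryonic dorsal aorta, from which blood stem and progenitor cells emerge, their transcripts are part of the cells' general supply for respiration.

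Genes for these proteins were taken by name from an RNA-seq table of sorted zebrafish cells: a symbol that starts with mrpl (large subunit) or mrps (small subunit) followed by a digit. This gave 75 genes of the 25011 in the table, and no measured value entered the choice. Of these, 49 encode large subunit proteins and 25 small subunit proteins, counting mrps18a and mrps30 with the large subunit, where the mammalian mitoribosome holds their products. The remaining gene, mrps36, keeps its symbol although its product is now regarded as a component of the oxoglutarate dehydrogenase complex, and it stands apart from both subunits below.

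The cells came from the trunk of embryos aged 36 hours after fertilisation and were sorted for a kdrl:mCherry reporter, which marks endothelium, together with a runx1:en-GFP reporter, which marks the blood-forming part of it. All embryos carried both transgenes. The morphants had received a morpholino, an antisense oligonucleotide that blocks a transcript, against dnmt3ba, a de novo DNA methyltransferase; the controls carry the genotype label WT, and the sources used here do not say whether anything was injected into them. Each group had 3 biological replicates of about 5000 pooled cells from several embryos, so a difference in cell composition and a difference in RNA per cell cannot be told apart.

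The 6 libraries were of like depth, from 24397076 to 25132656 estimated counts. Control 2 lay far from all other libraries along the first principal component, which held 38.6% of the variance, so medians and counts that moved most without it, or without it and morphant 2, are given both ways. The targeted transcript did not check the labels: dnmt3ba was at a log2 fold change of -0.04 (SE 0.29; edgeR, adjusted p = 0.954), and a morpholino need not lower its target's RNA. Endothelial markers were present. The 18 listed genes summed to between 2564 and 3493 TPM (transcripts scaled by length and to a fixed total per library) in controls and between 4503 and 5290 in morphants. Of these, 17 had a log2 fold change above 0, with a median of 0.53, which was 0.32 without control 2 and morphant 2. From this list edgeR called 0 and DESeq2 called 3 higher and 0 lower, where it called 3.5% of all genes higher. kdrl itself was at 16.6 to 122 TPM. Of 6 haemogenic markers 5 had a log2 fold change below 0 and 1 above it, at 0.64, with a median of -0.57. Among them edgeR called 0. DESeq2 called 3 lower and 1 higher, where it called 3.71% of all genes lower and 3.5% higher. runx1 was at 7.15 to 11.4 TPM in morphants and 13.7 to 32.95 TPM in controls. Markers of other cell types were present too. The sum of 19 skeletal muscle genes was 10443 to 24352 TPM in morphants and 15592 to 75353 in controls, and that of 11 erythroid genes 1498 to 4835 and 4913 to 14755 TPM; all 19 and all 11 had log2 fold changes below 0. The 10 epidermal genes summed to 512 to 965 TPM in morphants and 1106 to 3316 in controls, and the 9 neutrophil and macrophage genes to 8767 to 28138 and 7829 to 24956 TPM. The 8 neural genes, all with log2 fold changes below 0, summed to 45.8 to 140 and 106 to 171 TPM. No gene of these lists was at 0 in all libraries.

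All 75 genes were expressed in all 6 libraries. The lowest estimated count of any of them was 107, for mrpl52 in a control, and all 75 passed the filter on low counts. The mean level over the 6 libraries had a median of 93.2 TPM among the 75 genes, against 6.76 TPM among the 18846 genes tested. It spanned a 15.1-fold range, from 13.8 TPM for mrpl1 to 209 TPM for mrpl57. Most of the family lay close together in this range: 61 genes had a mean above 50 TPM, 32 had one above 100 TPM, and 5 had one below 30 TPM.

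The genes at the top of this order were mrpl57 and mrpl53, which encode proteins found only in mitochondrial ribosomes, followed by mrpl36, mrps18a, mrpl20 and mrpl2. The order holds for TPM, which are scaled by length. In CPM, counts scaled to library size alone, mrpl57 averaged 49.8 and mrpl53 32.4, against 167 for mrpl2. mrpl57 was at 288, 219 and 279 TPM in morphants 1, 2 and 3 and at 150, 126 and 190 TPM in controls 1, 2 and 3. mrpl53 was at 319, 240 and 270 TPM in the morphants and at 181, 72.0 and 150 TPM in the controls. For both genes every morphant was above every control, and control 2 was the lowest library.

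mrpl36, whose bacterial counterpart is among the smallest ribosomal proteins, was at 283, 187 and 210 TPM in morphants and 168, 181 and 181 TPM in controls. mrps18a was at 245, 149 and 201 TPM in morphants and 126, 217 and 145 TPM in controls. The groups were separate for mrpl36 on this scale but overlapped for mrps18a, whose second highest value was in control 2. The means of these abundant genes were close to each other relative to their spread: in morphants, mrpl57 averaged 262 ± 37.2 TPM, mrpl36 227 ± 50.5 TPM and mrps18a 198 ± 48.3 TPM (SD, n = 3).

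mrpl20 was at 254, 145 and 203 TPM in morphants against 155, 134 and 161 TPM in controls, and mrpl2, whose product lies near the catalytic centre, at 237, 148 and 189 TPM against 141, 190 and 143 TPM. In both genes morphant 1 was highest and morphant 2 lay inside the range of the controls. At the other end, mrpl1 was at 14.5, 12.5 and 15.0 TPM in morphants and 8.46, 21.4 and 11.1 TPM in controls, so that its lowest and its highest value were both in controls. mrps33 was at 17.4, 24.8 and 18.1 TPM against 15.6, 17.5 and 21.0 TPM, and mrps16 at 22.3, 21.6 and 22.7 TPM against 15.7, 20.1 and 20.5 TPM. The groups overlapped for mrps33, while the 3 morphants were narrowly above the 3 controls for mrps16.

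**Figure D1:**
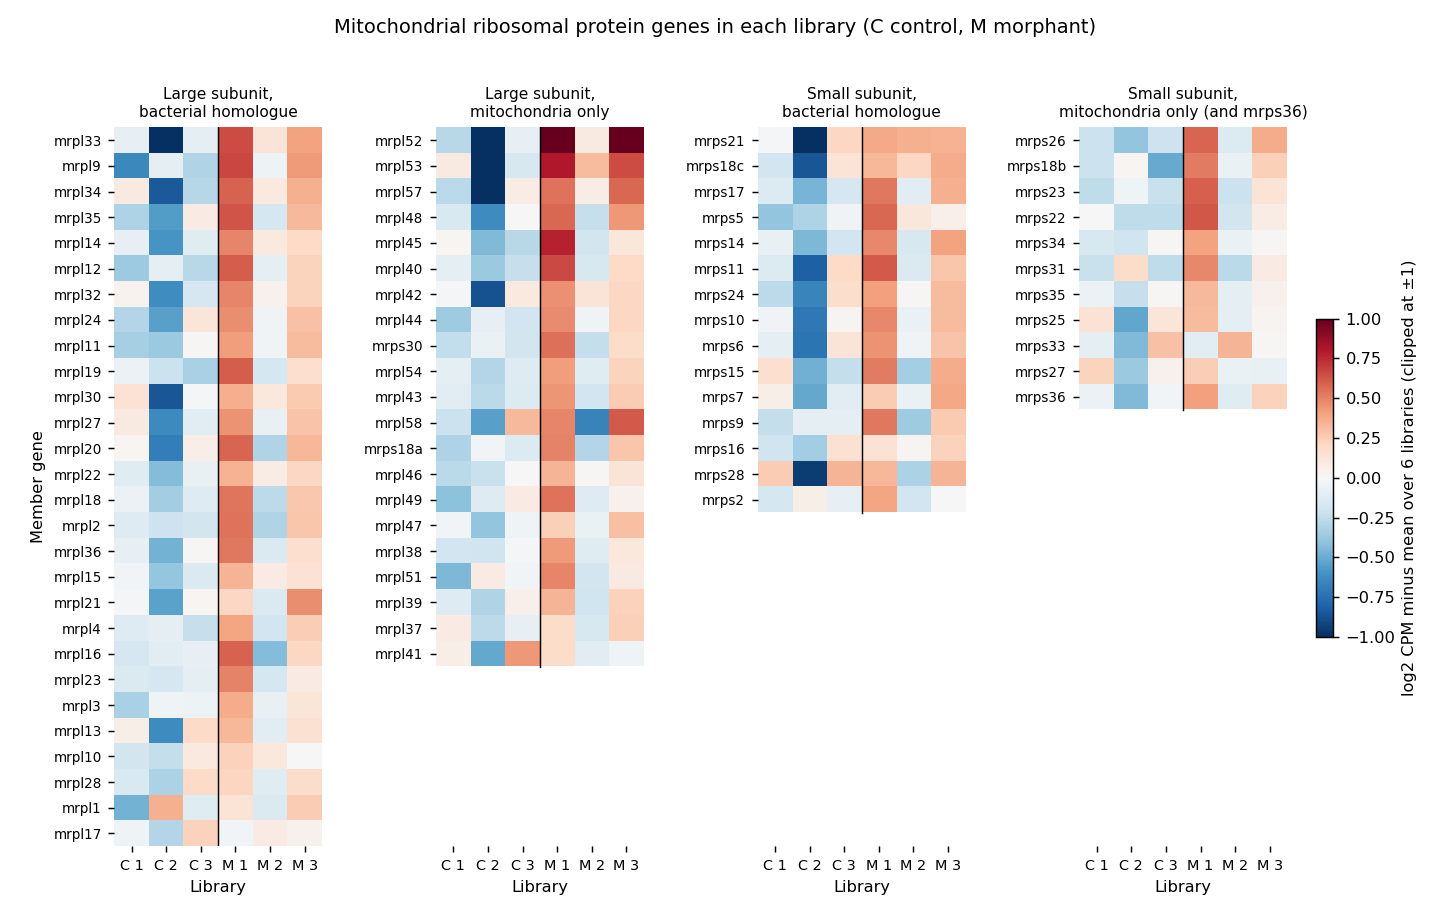
Each of the 75 genes (rows) in each library (columns), as log2 CPM (counts scaled to library size) minus the gene's mean over the 6 libraries, clipped at 1 either way, with genes in 4 classes by subunit and by bacterial counterpart. Morphant 1 is red for nearly every gene, control 2 blue for most, and morphant 2 is pale and close to controls 1 and 3.

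The comparison of morphants with controls asks how the knockdown relates to the expression of these genes. No gene of the family passed the test. Of the 75 genes, 0 were called higher and 0 lower at an adjusted p under 0.05 (edgeR quasi-likelihood test), where 0.0531% of all tested genes were called higher and 0.0106% lower, and the smallest adjusted p in the family was 0.233. DESeq2, which called 3.5% of genes higher and 3.71% lower, also called 0 members in either direction, with a smallest adjusted p of 0.0658, and limma-voom called 0 with a smallest adjusted p of 0.220.

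What the family showed was a small difference in nearly every gene. The log2 fold change, morphant over control, was above 0 for 74 of the 75 genes, against 47.6% of all tested genes. Its median was 0.38, with the middle 50% of genes between 0.29 and 0.48, against a median of -0.04 over all tested genes. Single values ran from -0.03 for mrpl41 to 1.39 for mrpl52, and 58 of the 75 lay between 0.2 and 0.6. The SE of a gene's fold change had a median of 0.23, and the SD of the fold changes across the 75 genes was 0.21. Differences between single genes were not tested. The genes were read in the same 6 libraries and are not independent of each other.

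At an unadjusted p under 0.05, 12 members (16%) were higher and 0 were lower, where 7.58% of all tested genes were higher and 9.46% lower. These were mrpl52, mrpl53, mrpl57, mrpl33, mrpl9, mrpl34, mrps26, mrps17, mrpl14, mrpl12, mrps5 and mrpl11. The count depended on single libraries. Leaving out morphant 1 gave 0 members higher where 4.52% of all tested genes were higher, morphant 3 gave 1 (4.44% of all) and morphant 2 gave 29 (7.85%). Leaving out control 1 gave 6 (7.28%), control 2 gave 7 (7.93%) and control 3 gave 8 (7.17%). In CPM, every morphant was above every control for 19 members (25.3%) and below for 0, where 12.4% of all tested genes were separated upwards and 11.9% downwards. Of those 19, 11 were among the 12 at an unadjusted p under 0.05. In TPM the groups were separated upwards for 27 members (36%), against 11.7% of all tested genes, and downwards for 0, against 9.49%.

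**Figure D2:**
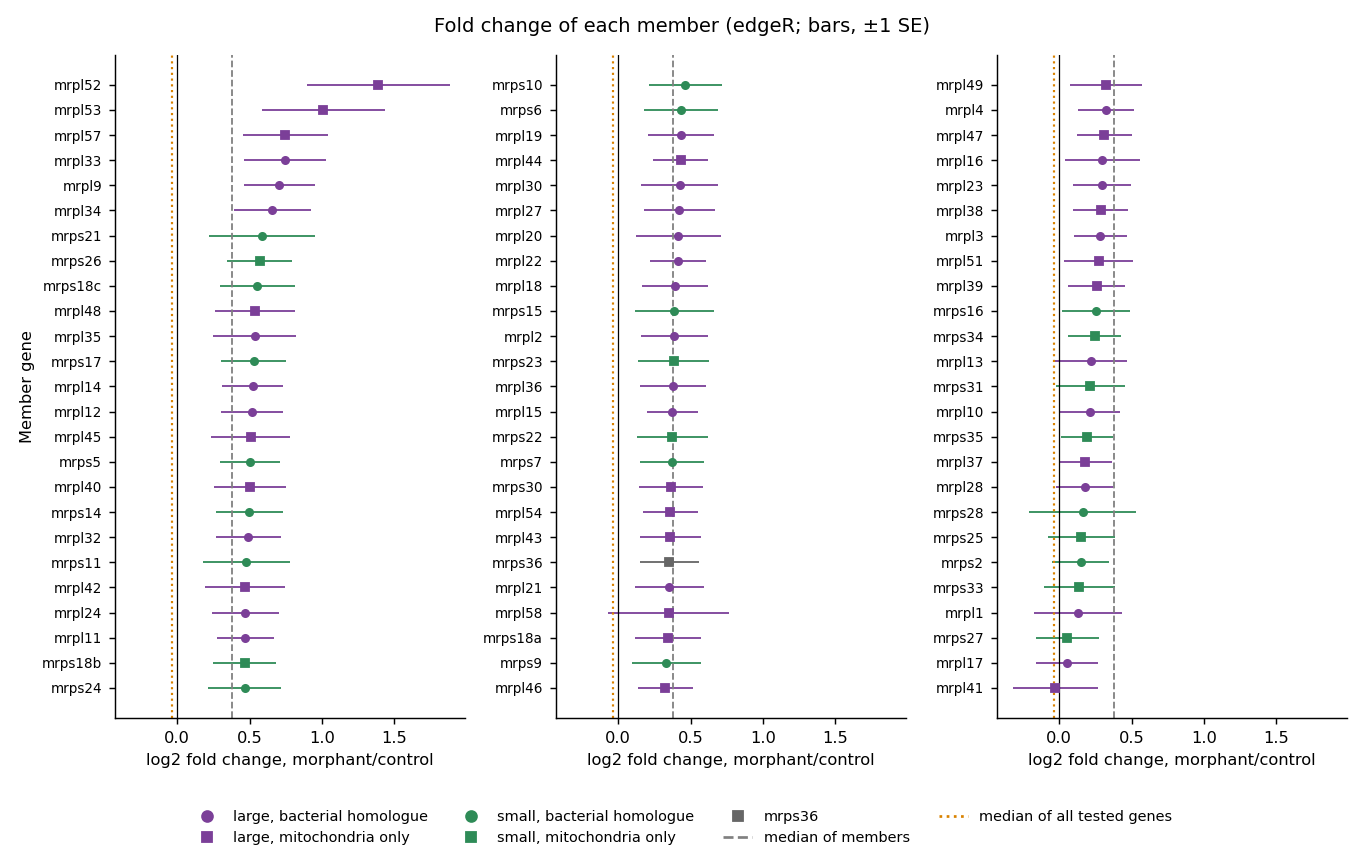
Log2 fold change of each of the 75 genes, morphant over control, with bars of 1 SE from the edgeR fit, ordered from largest to smallest; the dashed line is the median of the family (0.38) and the dotted line that of all tested genes (-0.04). All points but that of mrpl41 lie to the right of 0, and most bars reach the family's median.

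The libraries did not contribute alike. In CPM, morphant 1 held the highest of the 6 values for 62 of the 75 genes and was above all 3 controls for 69. Morphant 3 was above all 3 controls for 62 genes, whereas morphant 2 was above all 3 for 21 and was the lowest morphant for 69. Control 2 held the lowest value for 52 genes, control 1 for 12, control 3 for 4 and a morphant for 7. Morphant 2 and control 3 were thus close: summed over the family, morphants 1, 2 and 3 had 5158, 3467 and 4379 CPM and controls 1, 2 and 3 had 3424, 2979 and 3574 CPM, with morphant 2 below control 3.

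In TPM the sums of the groups were separate. The CPM carry a further scaling factor per library (TMM), 1.03 for morphant 2, 0.932 for control 3 and 1.11 for control 2, which the TPM do not. This factor is not the only difference between the scales, since TPM are also scaled by length and to a fixed total. Control 2 was the lowest library in summed CPM. It was also lowest, at 4353, in summed FPKM, which are scaled by length and carry no TMM factor, but was the highest control in summed TPM. The family summed to 9646, 6885 and 7925 TPM in morphants 1, 2 and 3 and to 5764, 6559 and 6143 TPM in controls 1, 2 and 3, which is 0.576 to 0.965% of all transcripts. The means were 8152 ± 1394 and 6155 ± 398 TPM (SD, n = 3), a ratio of 1.32, and the gap between morphant 2 and control 2 was smaller than the SD of either group. Without morphant 1 the median log2 fold change of the 75 genes was 0.23, and without morphant 2 it was 0.54. The sums of muscle markers differed between the same libraries: among morphants, morphant 2 had 24352 TPM where morphants 1 and 3 had 11770 and 10443, and among controls, control 2 had 15592 TPM where controls 1 and 3 had 49833 and 75353. Sums of other marker lists differed between libraries too. The erythroid genes summed to 4835, 3735 and 1498 TPM in morphants 1, 2 and 3 and to 14755, 5567 and 4913 TPM in controls 1, 2 and 3. In the same order, the neutrophil and macrophage genes summed to 15456, 8767 and 28138 and to 13112, 24956 and 7829 TPM. The part of these other cells in the family's difference was not tested.

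The medians of both subunits were alike. Of the 49 large subunit genes, 48 had a log2 fold change above 0, with a median of 0.38, and 14 had every morphant above every control in CPM, where 12.4% of all tested genes did. All 25 small subunit genes were above 0, also with a median of 0.38, and 5 had separate groups. The summed level of large subunit genes was 6841, 4824 and 5617 TPM in morphants and 4031, 4600 and 4280 TPM in controls. That of small subunit genes was 2593, 1909 and 2130 TPM in morphants and 1596, 1811 and 1721 TPM in controls. The ratio of the large to the small sum stayed between 2.49 and 2.64 in the 6 libraries.

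**Figure D3:**
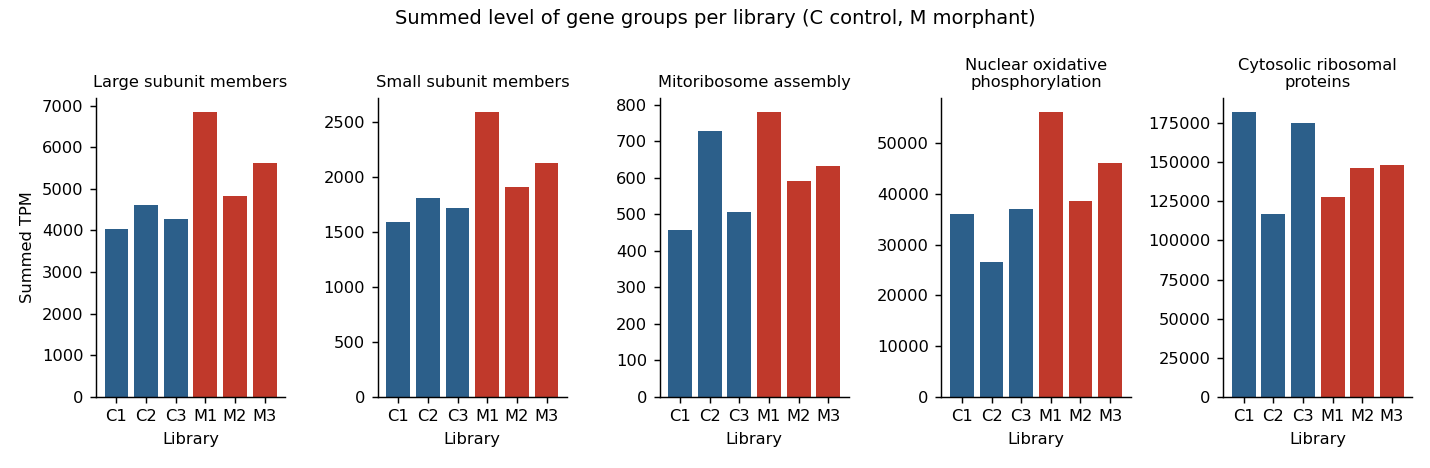
Summed TPM per library (C, controls; M, morphants) of the large and small subunit genes of the mitoribosome, of its assembly factors, of nuclear oxidative phosphorylation genes and of cytosolic ribosomal protein genes; each bar is 1 library and each axis starts at 0. In the first 2 panels the 3 morphants are above the 3 controls with morphant 1 tallest, and in the last panel control 2 has the lowest bar.

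Genes with a bacterial counterpart and genes particular to mitochondria were compared next. The 43 with a counterpart had a median log2 fold change of 0.42 and the 31 without had one of 0.35. By subunit, the medians were 0.40 for 28 large subunit genes with a counterpart, 0.36 for 21 without, 0.46 for 15 small subunit genes with a counterpart and 0.23 for 10 without. No test of these differences between classes was made. Without control 2 and morphant 2 the medians were 0.43 for genes with a counterpart and 0.47 for those without. By subunit they were then 0.45 and 0.47 in the large subunit and 0.39 and 0.40 in the small. The order of the classes thus rested on those libraries. The classes also differed in implied length, with medians of 641 bases with a counterpart and 872 without. After each library's trend with length had been removed, as described below, the medians in all 6 libraries were 0.22 with a counterpart and 0.13 without. By subunit they were then 0.20 and 0.14 in the large subunit and 0.25 and 0.09 in the small. The part of length in the class difference was not tested. The small subunit genes without a counterpart include mrps27 and mrps35; their summed level was 926, 671 and 705 TPM in morphants against 572, 772 and 572 TPM in controls, with control 2 above morphants 2 and 3.

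Among the 75 genes the strongest differences were in the large subunit. mrpl52 (gene ID 100007768), whose product sits in the central protuberance of the mammalian mitoribosome, the part that faces the small subunit and the transfer RNAs, was at 32.5, 15.5 and 29.3 CPM in morphants 1, 2 and 3 against 11.96, 3.88 and 13.7 CPM in controls 1, 2 and 3. The lowest morphant was above the highest control, and control 2 was far below the other controls. The fold change was 2.62, a log2 value of 1.39 (SE 0.49; edgeR, adjusted p = 0.237). Without control 2 alone the log2 value was 1.01 (edgeR, adjusted p = 0.207). Without control 2 and morphant 2 it was 1.27 (edgeR, adjusted p = 0.0206).

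mrpl53 (447915), whose product lies at the base of the stalk that recruits translation factors, was at 49.8, 35.6 and 44.7 CPM in morphants against 30.4, 8.71 and 25.6 CPM in controls. All morphants were above all controls, again with control 2 far below the rest. The log2 fold change was 1.01 (SE 0.43, edgeR adjusted p = 0.287). It was 0.63 without control 2 and 0.76 without control 2 and morphant 2.

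mrpl57 (393748), the most abundant member in TPM, was at 68.0, 49.4 and 69.7 CPM in morphants against 38.9, 23.4 and 49.3 CPM in controls. Morphant 2 and control 3 were all but equal. The log2 fold change was 0.75 (SE 0.29; edgeR, adjusted p = 0.266). mrpl33 (100536515), a small protein with a bacterial counterpart, was at 63.6, 44.3 and 53.6 CPM against 38.2, 20.3 and 38.0 CPM. Its groups were separated by more than those of mrpl57, with a log2 fold change of 0.74 (SE 0.28; edgeR, adjusted p = 0.255).

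mrpl9 (572170), counterpart of a bacterial protein of the same name that reaches out from the side of the large subunit, was at 53.4, 32.4 and 45.0 CPM in morphants against 21.5, 31.4 and 27.3 CPM in controls. Here control 2 was the highest control and nearly met morphant 2, and in TPM, at 65.9 in control 2 and 56.0 in morphant 2, the groups overlapped. The log2 fold change was 0.71 (SE 0.25; edgeR, adjusted p = 0.233). Without control 2 alone it was 0.84 (edgeR, adjusted p = 0.172). Without control 2 and morphant 2 it was 1.02 (edgeR, adjusted p = 0.0398). mrpl52 and mrpl9 were the 2 members called in that comparison of 2 libraries with 2, in which 2.56% of all tested genes were called higher; 0 members were called lower, where 4.54% were. At an unadjusted p under 0.05, 31 members were higher there, where 11.7% of all tested genes were, and 0 lower, where 14% were. Morphant 2, left out there, was in CPM the lowest morphant for 69 of the 75 genes. Without control 2 alone, 0 members were called at an adjusted p under 0.05 (edgeR). At an unadjusted p under 0.05, 7 were then higher, where 7.93% of all tested genes were.

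mrpl34 (552972), another small protein with a bacterial counterpart, was at 75.9, 53.9 and 64.4 CPM in morphants against 53.7, 28.1 and 41.3 CPM in controls. Control 1 reached almost to morphant 2. The log2 fold change was 0.66 (SE 0.27, edgeR adjusted p = 0.272). Without control 2 the log2 fold change was 0.45 for mrpl34, 0.50 for mrpl57 and 0.50 for mrpl33.

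In the fit to all 6 libraries, the largest values among the 25 small subunit genes of the family belonged to mrps21 and mrps26. mrps21 (100073334), whose bacterial counterpart takes part in binding messenger RNA at initiation, was at 20.1, 19.8 and 19.7 CPM in morphants against 15.3, 6.46 and 17.9 CPM in controls. The morphants were nearly identical and the controls were not, so that the log2 fold change of 0.59 had an SE of 0.37 (edgeR, adjusted p = 0.447). This fold change was 0.26 without control 2, and also 0.26 without control 2 and morphant 2. mrps26 (436691), particular to mitochondria, was at 48.0, 29.3 and 41.5 CPM in morphants against 27.7, 24.5 and 27.9 CPM in controls. Here the controls were alike and morphant 2 was just above them. The log2 fold change was 0.57 (SE 0.22, edgeR adjusted p = 0.266), and 0.51 without control 2.

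mrpl41 was the exception to the common direction. It was at 13.9, 11.3 and 11.8 CPM in morphants against 12.7, 8.53 and 16.5 CPM in controls, with the highest and the lowest value both in controls. Its log2 fold change of -0.03 had an SE of 0.29 and was smaller than the spread between replicates, and its sign turned in other fits. mrpl17 and mrps27 were next to it, with log2 fold changes of 0.05 (SE 0.21) and 0.06 (SE 0.22).

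**Figure D4:**
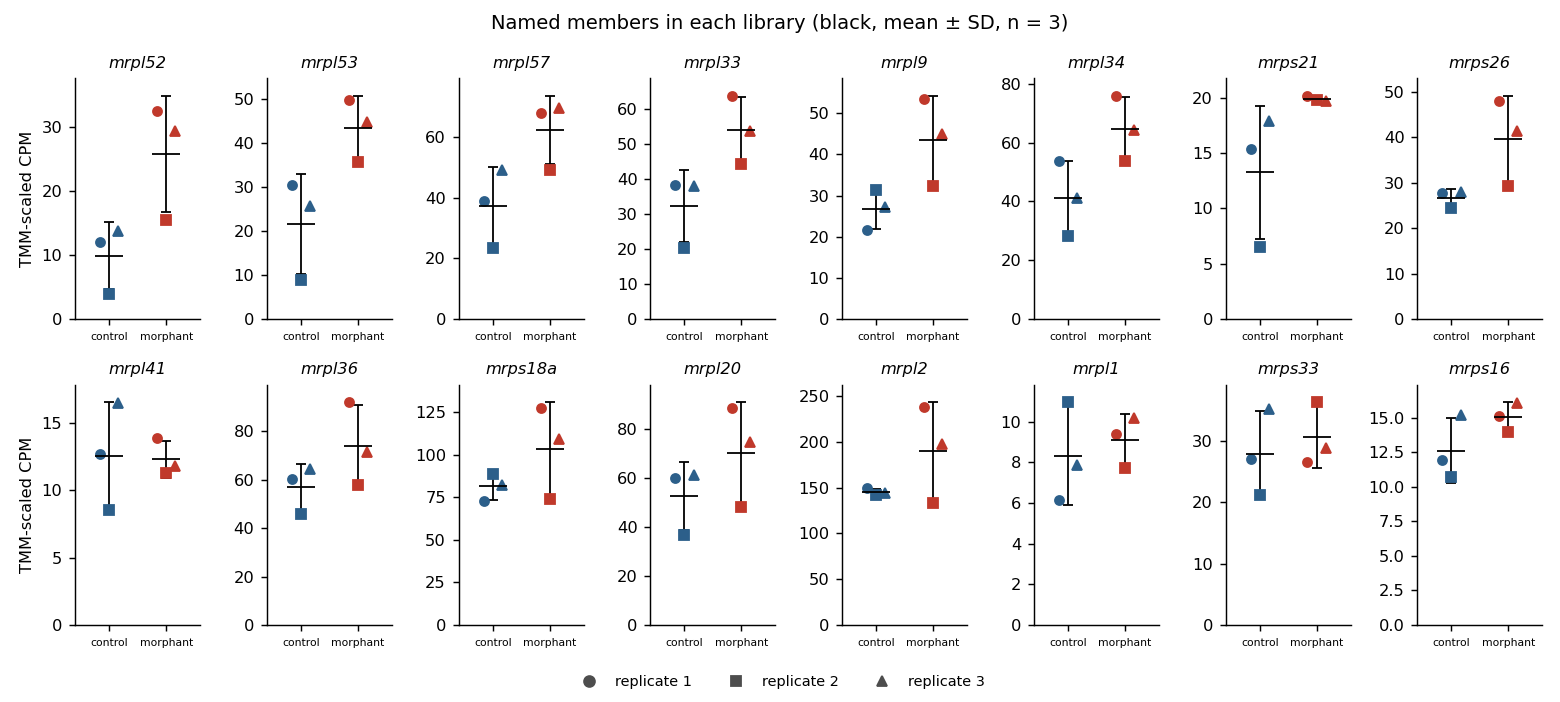
TMM-scaled CPM of 16 genes in each library (circles, squares and triangles are replicates 1, 2 and 3; black bars are the mean ± SD, n = 3): the 8 largest positive fold changes in the top row, then mrpl41, 4 further abundant genes and the 3 least abundant. The top row has every morphant above every control, with control 2 the lowest library in each except that of mrpl9, where it is the highest control; in the bottom row the groups overlap.

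By place in the ribosome, a grouping made after the values had been seen and taken from mammalian structures, no region stood out in the direction of its genes. The 5 stalk genes, mrpl10, mrpl11, mrpl12, mrpl53 and mrpl54, had a median log2 fold change of 0.47 and summed to 880, 650 and 727 TPM in morphants against 488, 508 and 496 TPM in controls. Within the stalk, mrpl12, which in mammals also binds the mitochondrial RNA polymerase, was at 121, 75.3 and 93.3 CPM in morphants against 62.1, 74.7 and 65.9 CPM in controls. Morphant 2 and control 2 were close to each other, and the log2 fold change was 0.52 (SE 0.21; edgeR, adjusted p = 0.277). mrpl10, whose product anchors that of mrpl12, was at a log2 fold change of 0.21 (SE 0.21).

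The 8 genes of the central protuberance had a median of 0.41, and mrpl52 lay far above the others. They included mrpl58, whose product in humans can release peptides from stalled ribosomes, at a log2 fold change of 0.35 with the large SE of 0.42 and at 10.01, 4.50 and 10.97 CPM in morphants against 6.15, 4.90 and 8.98 CPM in controls; morphant 2 was its lowest library. The 7 genes that line or surround the exit tunnel, where the new peptide leaves towards the inner membrane, had a median of 0.41 and a range of 0.05 for mrpl17 to 0.51 for mrpl45, which in mammals helps to hold the ribosome at the membrane. The 4 genes around the catalytic centre, mrpl2, mrpl3, mrpl4 and mrpl16, lay between 0.28 and 0.39, and their median of 0.31 was 0.52 without control 2 and morphant 2. Along the path of the messenger RNA on the small subunit, 6 genes (mrps5, mrps7, mrps11, mrps18c, mrps21 and mrps24) lay between 0.37 and 0.59.

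The mrps18 paralogues take alternative places in the mammalian mitoribosome, mrps18a in the large subunit and mrps18b and mrps18c in the small. Their log2 fold changes were 0.35 (SE 0.23), 0.47 (SE 0.22) and 0.55 (SE 0.26). mrps18c was at 45.6, 41.9 and 46.9 CPM in morphants against 31.8, 19.99 and 39.8 CPM in controls, without overlap. mrps18b was at 151, 100 and 124 CPM against 90.8, 107 and 74.1 CPM, with control 2 above morphant 2. mrps36, outside both subunits, was at 108, 74.2 and 95.0 CPM against 77.7, 59.6 and 79.2 CPM, with a log2 fold change of 0.35 (SE 0.21), within the middle of the family.

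The 75 genes share a property that the choice by name did not use: they are short. The length implied by the deposited counts and FPKM values had a median of 716 bases among them, from 206 for mrpl53 to 2027 for mrps33, and all 75 were shorter than the median of 2042 bases among the tested genes. Across all 18846 tested genes the log2 fold change was related to length (Spearman's rho -0.28), and the median was 0.23 in the shortest twentieth of genes. Within the family rho was -0.39 (n = 75 genes, which share the same libraries), and mrpl53 and mrpl52, the 2 shortest genes, had the largest fold changes.

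Control 2 differed from the other controls along length. Its log2 TPM minus the mean of controls 1 and 3 was related to length with a rho of 0.69 over the 75 genes. In TPM control 2 was below both other controls for 19 genes, of median length 462 bases, and above both for 42, of median length 882. These counts depend on how libraries are scaled: in CPM control 2 was the lowest of the 6 libraries for 52 genes. mrpl53 was at 72.0 TPM in control 2 against 181 and 150 in the others, whereas mrpl9, of 801 bases, was at 65.9 against 31.8 and 41.1. After each library's trend with length had been removed, the median log2 fold change of the family was 0.20, with 67 of 75 genes above 0. At an unadjusted p under 0.05 (edgeR), 5 members were then higher in morphants, where 8.57% of all tested genes were higher. mrpl52 then had a log2 fold change of 1.2, mrpl53 0.83 and mrpl33 0.58. A gene's length and other features that go with being short cannot be told apart here.

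**Figure D5:**
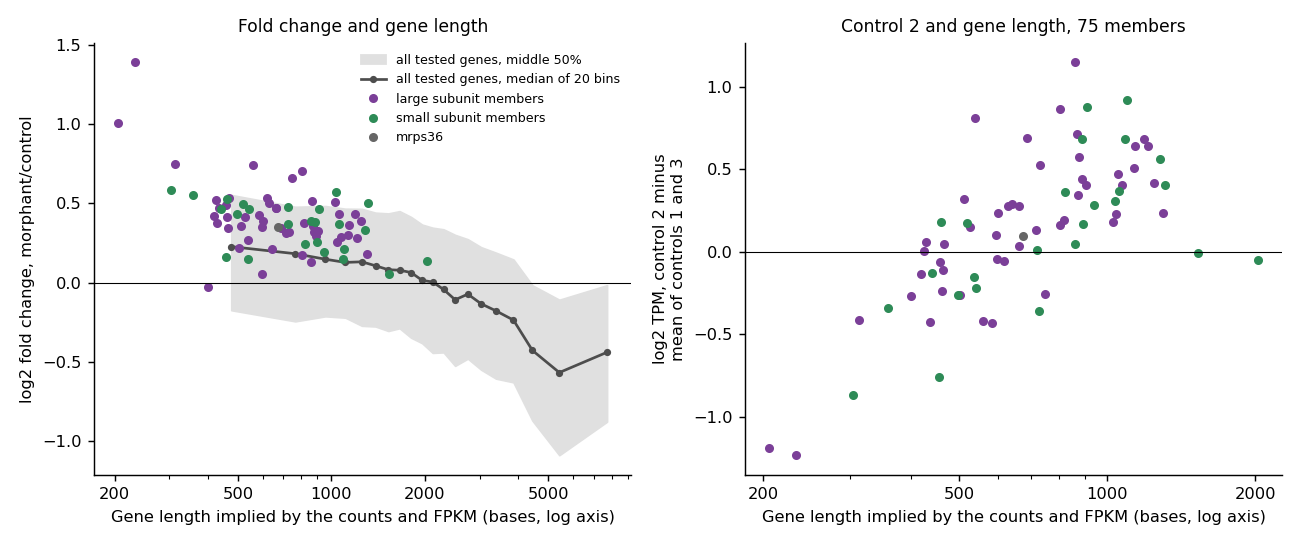
Left, log2 fold change against implied gene length on a log axis for the 75 genes (points) and for all tested genes (line and shading). The line is the median of 20 bins of equal size and the shading the middle 50%. Right, the difference in log2 TPM of control 2 from the mean of the other controls against implied length for the 75 genes. The line falls from 0.23 to below 0 with length and most points lie above it, and control 2 is lowest for the shortest genes.

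Mitoribosomal proteins whose genes carry other names were also read. Of the 5, 4 had a log2 fold change above 0, with a median of 0.39, and edgeR called 0. chchd1, a small subunit protein, was at 60.8, 50.3 and 51.6 TPM in morphants and at 29.1, 44.2 and 30.3 TPM in controls. The groups were separate, with a log2 fold change of 0.69 (SE 0.17; edgeR, adjusted p = 0.154; DESeq2, adjusted p = 0.0127). aurkaip1, also of the small subunit, was at 199, 144 and 168 TPM against 94.3, 132 and 104 TPM, again with separate groups and a log2 fold change of 0.66 (SE 0.19; edgeR, adjusted p = 0.178; DESeq2, adjusted p = 0.0414). The other 3 were below both, at log2 fold changes of 0.39 (SE 0.19) for dap3, a GTP-binding protein of the small subunit's head, 0.17 (SE 0.21) for gadd45gip1 and -0.13 (SE 0.21) for ptcd3.

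Among genes that act on or with the mitoribosome edgeR called 0 in any list. Of 26 assembly factors 20 were above 0, with a median log2 fold change of 0.17. At an unadjusted p under 0.05 (edgeR), 2 were higher, a share near the 7.58% of all tested genes that were higher. The median was 0.40 without control 2 and morphant 2, where that of the ribosomal proteins was 0.44, and 0.08 after the length correction. The most abundant was the zebrafish counterpart of malsu1, listed as si:zfos-1192g2.3, whose product binds the maturing large subunit: it was at 160, 99.0 and 123 TPM in morphants and at 72.9, 69.5 and 91.97 TPM in controls, with a log2 fold change of 0.70 (SE 0.29). ybey, a nuclease linked to ribosomal RNA in bacteria, was at 95.6, 43.3 and 66.5 TPM against 43.6, 47.4 and 39.1 TPM, where morphant 2 lay among the controls. trub2, a pseudouridine synthase, was at 41.4, 38.2 and 40.5 TPM against 27.7, 48.5 and 27.9 TPM, where control 2 was highest.

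Of 17 translation factors 14 were above 0, with a median of 0.25, or 0.12 after the length correction. tufm, the elongation factor that brings transfer RNAs to the ribosome, was the most abundant, at 225, 176 and 164 TPM in morphants and 159, 273 and 183 TPM in controls, and had a log2 fold change of -0.08 (SE 0.18). slirp, which protects mitochondrial messenger RNAs together with lrpprc, was at 140, 148 and 148 TPM against 114, 95.8 and 86.4 TPM. Its groups were separate, with a log2 fold change of 0.55 (SE 0.22; edgeR, adjusted p = 0.271). oxa1l, which inserts the new proteins into the inner membrane, had a log2 fold change of 0.09 (SE 0.15).

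The mitochondrial aminoacyl-tRNA synthetases, which load the transfer RNAs used by these ribosomes, varied in direction. Of 16, 5 were above 0 and 11 below, with a median of -0.09, which was 0.19 without control 2 and morphant 2. iars2, the most abundant, was at 37.4, 35.1 and 31.6 TPM in morphants and at 25.7, 75.3 and 25.8 TPM in controls, so that control 2 alone was high. tars2 had a log2 fold change of -0.08 (SE 0.24) and wars2 one of 0.45 (SE 0.24). Among 17 genes of mitochondrial DNA and RNA upkeep 8 were above 0, with a median of -0.02, or 0.16 without control 2 and morphant 2; hsd17b10, ssbp1 and pnpt1, the most abundant, were at 0.39 (SE 0.23), 0.14 (SE 0.17) and -0.10 (SE 0.31) in log2 fold change.

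Of 11 regulators of mitochondrial biogenesis 7 were above 0, with a median of 0.09, which was 0.16 without control 2 and morphant 2 and 0.18 after the length correction. gabpa, yy1a and mycb, the most abundant, had log2 fold changes of 0.07 (SE 0.17), -0.13 (SE 0.17) and 0.40 (SE 0.33). DESeq2 called 1 gene of this list higher and 0 lower, where it called 3.5% of all genes higher and 3.71% lower. The gene called was myca, which encodes a Myc protein, at a log2 fold change of 0.89 (SE 0.23, edgeR adjusted p = 0.163, DESeq2 adjusted p = 0.0196). In CPM 2 of the 11 had every morphant below every control and 1 above, where 11.9% and 12.4% of all tested genes did. The 2 were nrf1, a transcription factor for nuclear genes of mitochondrial proteins, and pprc1, a coactivator. Their log2 fold changes were -0.51 (SE 0.19, edgeR adjusted p = 0.248, DESeq2 adjusted p = 0.174) and -0.80 (SE 0.28, edgeR adjusted p = 0.233, DESeq2 adjusted p = 0.112). Genes used as measures of mitochondrial mass and import were near 0, with 8 of 12 above it and a median of 0.07, which was 0.035 without control 2 and morphant 2 and -0.05 after the length correction. The porin genes vdac2, vdac3 and vdac1 had log2 fold changes of 0.01 (SE 0.20), 0.10 (SE 0.28) and -0.03 (SE 0.25), and vdac2 was at 447, 378 and 380 TPM in morphants against 405, 400 and 387 TPM in controls.

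The proteins that the mitoribosome makes are joined in the respiratory complexes by proteins encoded in the nucleus. A list of nuclear oxidative phosphorylation genes had differences of the same direction. It was taken by the start of the gene symbol, which also admits assembly factors of the complexes beside their subunits. Of 102 tested nuclear oxidative phosphorylation genes 94 were above 0, with a median log2 fold change of 0.47 and of 0.31 after length correction, and edgeR called 0. Their sum was 56132, 38686 and 46141 TPM in morphants and 36079, 26610 and 36997 TPM in controls. The morphants were in the same order as in the mitoribosomal sum. The controls were not: control 2 was the lowest control here and the highest control in the mitoribosomal sum in TPM. cox7c, a short subunit of cytochrome c oxidase and the most abundant, had a log2 fold change of 0.87 (SE 0.44), and atp5mc1 and atp5f1b of the ATP synthase had 0.62 (SE 0.29) and 0.39 (SE 0.29).

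Cytosolic ribosomal protein genes, which are also short, lay on the other side. Of 79 tested, 13 were above 0 and 66 below, with a median log2 fold change of -0.24, which was -0.38 after length correction and -0.55 without control 2 and morphant 2. Single values ran from -1.48 to 3.31, and edgeR called 0. DESeq2 called 1 higher and 3 lower, where it called 3.5% of all genes higher and 3.71% lower. rpl19 and rps20, both abundant, had log2 fold changes of 0.28 (SE 0.23) and -0.06 (SE 0.30). The sum of the list was 127483 to 148480 TPM in morphants and 117234 to 182055 in controls, with control 2 the lowest library of all and the other controls the highest. Set beside this list, the mitoribosomal median was 0.38, or 0.20 after length correction and 0.44 without control 2 and morphant 2; no test between the lists was made.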

How the data were processed

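RNA-seq was done on 3 control and 3 dnmt3ba morphant samples; the labels give each sample its group and replicate number, and the replicates were biological per the design text. The tools named are HTSeq 0.12.4, HISAT2 2.2.1, DESeq2 1.30.1 and BS-Seeker2 2.1.8, with the build GRCz11 and no roles, per the submitters' processing notes. Per the file headers, the deposited table gives each gene an FPKM value, a TPM value and an estimated count in each library. Among the deposited estimated counts, 13.5 to 15.1% per library were not whole, for a reason the sources do not give; among the 75 genes described this touched mrpl2 alone. Neither the annotation nor the strand setting is stated. Bisulfite sequencing of 6 further samples was not used here.

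Estimated counts were rounded, filtered with filterByExpr (18846 genes kept), TMM-scaled and tested with the edgeR 4.0.16 quasi-likelihood F-test in R 4.3.3, with the group as the only term, two-sided, with Benjamini-Hochberg adjustment over all tested genes and a threshold of 0.05. CPM values are TMM-scaled; TMM factors ran from 0.932 to 1.11. The deposited TPM values were summed and compared between genes as they stand. SEs were derived from the F statistic. Alternatives were RLE and upper-quartile scaling, no filter, a filter at 5 CPM or more in 3 libraries, DESeq2 1.42.0, limma-voom (limma 3.58.1), a replicate block, leaving out each library in turn, or both control 2 and morphant 2, and a length correction, in which a loess trend (span 0.5) of each library's deviations on log2 length entered edgeR as an offset. The scripts were tested on simulated data.

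The genes, lists and tests were chosen with earlier results of these data known, and no set test was made. Members given per library are those called, else the 8 largest positive fold changes with separate groups and at least 5 CPM, those below 0, and the 6 most and 3 least abundant in TPM; of each other list, its 3 most abundant genes, of which 1 is not reported here. Others (mrpl17, mrps27, the genes by region, the mrps18 paralogues, mrps36, chchd1, ptcd3, myca, nrf1 and pprc1) were named after their values were seen. Members of lists were matched by symbol, or by synonym through RefSeq names of the assembly GRCz12tu. The p-values set the difference between the groups against the spread between replicates within them, in these 6 libraries alone.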

Additional observations from a re-analysis of the deposited data

How the results depend on the processing

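The calls depended on which libraries entered. At an adjusted p under 0.05, 0 members were called in either direction under the other scalings, filters and tools, under the length correction and without any single library; without control 2 and morphant 2 together 2 were called higher. At an unadjusted p under 0.05, 12 members were higher, where 7.58% of all tested genes were. The count was 5 after length correction (8.57% of all) and 31 without control 2 and morphant 2 (11.7%). Leaving out a single library gave from 0, without morphant 1 (4.52%), to 29, without morphant 2 (7.85%). With the stricter filter it was 6, and the share of all genes was not counted there. The count of members lower was 0 in each of these. The median log2 fold change of 0.38 stayed above 0 in each, from 0.20 after length correction to 0.54 without morphant 2, and was 0.23 without morphant 1.

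dnmt3ba, at a log2 fold change of -0.04, was at 0.32 after length correction, at 0.10 without control 2 and morphant 2, and between -0.20 and 0.25 without a single library (0.15 without morphant 1 and 0.25 without control 2). mrpl41, at -0.03, was at 0.036 with limma-voom, and between -0.24 and 0.22 without a single library. mrpl1, at 0.13, was at -0.12 after length correction and between -0.044 and 0.38 without a single library. mrps33, at 0.14, was at -0.16 without control 2 and morphant 2 and between -0.021 and 0.35 without a single library. The causes were not tested.

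No pairing by replicate number was seen: the correlations of same-numbered libraries, as deviations from their group means, were 0.04, -0.08 and -0.15. With 3 libraries per group these values cannot exclude a pairing. With the replicate block 0 members were called, the median was 0.36 and mrpl41 was at 0.017. At an unadjusted p under 0.05, 10 members were higher in that fit, and the share of all genes was not counted.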
